A study of Mus musculus with 2 samples.

Results

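Fbn1 and Lox encode proteins of the elastic fibre, and their Pol II occupancy was taken as a pair of matrix genes of very different length. The 2 genes were chosen by position on the mouse build mm8, on which all read coordinates are given: Fbn1 as the enriched stretch within chromosome 2 from 124970001 to 125230000, and Lox as chromosome 18 from 52638001 to 52654000 with 20 kb on each side. Both lie on the minus strand, so the start of each gene is at the higher coordinate, and the gene names, strands and approximate lengths (about 200 kb and about 14 kb) are those of the selection rule. They are 2 of 15079 stretches of the genome joined in the same way. The reads of these stretches chose the genes, so their overall levels are given as a description.

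Pol II was mapped by chromatin immunoprecipitation and sequencing in fibroblasts of mouse embryos, cells of connective tissue that were kept in DMEM with 10% serum, with the monoclonal antibody 8WG16 against the repeated tail of the largest Pol II subunit. The labels give no genotype, strain, age or treatment, and there is 1 group of 2 libraries with no separate cultures named, so the spread between the libraries may be technical. The gel slice of library 1 spanned 150 to 350 bp, and that of library 2 spanned 150 to 300 bp. Gel slice, sequencing run and sample cannot be told apart. Library 1 held 17548967 distinct nuclear read starts and library 2 held 10941174, and background was 0.389 RPM (reads per 1000000 distinct starts) per kb in library 1 and 0.236 RPM per kb in library 2. Windows called enriched in both libraries took 17.3% of all starts in library 1 and 28.5% in library 2. The windows called in each library by itself took 19.1% in library 1 and 53.7% in library 2. Background is the mean over the windows left, so folds over background are not like for like between the libraries. No input was analysed here, and with no annotation of mm8 used here the fibroblast label was not checked against marker genes.

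Fbn1 encodes fibrillin-1, a large secreted glycoprotein that assembles into microfibrils, the scaffold on which elastin is laid down and to which latent TGF-beta complexes are tethered. Lox encodes lysyl oxidase, a secreted copper enzyme that oxidises lysines of elastin and collagens so that the fibres become cross-linked. Fibroblasts are a main source of both. A Pol II molecule begins at the gene start, often pauses shortly after it, moves through the body and may slow again where the transcript is cut and released, so reads at the start, body and end report on different steps of the same process. The antibody 8WG16 is known to prefer the tail in its unphosphorylated form.

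The start of Fbn1 is the place of its highest Pol II signal, and the bases before it are shown for that reason. The sequence is the RefSeq promoter of build GRCm38.p6, chr2:125506486-125506688, minus strand, 5′ to 3′, limited to the 203 bases outside the annotated gene. Its coordinates are not those of the reads and were not converted to mm8. Capitals mark the only match to the motifs searched.
Fbn1: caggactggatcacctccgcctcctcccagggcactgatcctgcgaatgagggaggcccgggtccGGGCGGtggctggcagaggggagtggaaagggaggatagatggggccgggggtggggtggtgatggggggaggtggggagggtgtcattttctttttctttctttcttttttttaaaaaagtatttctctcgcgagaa
The 250 bases before the start were searched on both strands for 3 motifs, none of which is part of another. The Fbn1 promoter held 1 match to GGGCGG, and 32.7% of the 32851 promoters in the table held that motif in the same window. It held no match to TATAAA, found in 12.4% of promoters. It likewise held no match to CCAAT, found in 33.8%. Over the same 250 bases, of which only the 203 outside the annotated gene are printed, its content of G and C was 59.2%. The median over all promoters was 52.4%. These 250 bases held 13 CG dinucleotides, against a median of 6. A match describes these letters only and is not a measured binding site. The promoter table matched 1 of the 2 genes.

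Pol II covered a long stretch at Fbn1 at a moderate level. The enriched stretch ran over 218 kb, from 124981501 to 125199500, and held 7868 reads in library 1 and 8641 in library 2. Its level was 2.06 RPM per kb in library 1 and 3.62 RPM per kb in library 2, 2.84 ± 1.11 on average (SD, n = 2). The levels were 5.29 and 15.3 times the background of the respective library. Of its 436 windows of 500 bp, 362 were called in library 1, where 3.41% of all tested windows of the genome were called. In library 2, 416 were called, against 9.02% of all tested windows, and 360 were called in both, against 2.90%. These calls defined the stretch, so nothing is read from their share.

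Within Fbn1 the 12 windows without a read in either library formed 1 run. No read of either library was placed from 125096566 to 125103026 among reads placed at 1 site, a run of 6.46 kb. A rule that joined called windows over at most 5 kb stopped there and left a stretch of 115 kb that lacked the start of the gene, so gaps of up to 10 kb were joined. With that choice the stretch of Lox did not move. Along the windows, the levels of the libraries had a Spearman rho of 0.53 in Fbn1 (436 windows) and 0.67 in Lox (37 windows); windows share mappability and are not replicates.

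**Figure D1:**
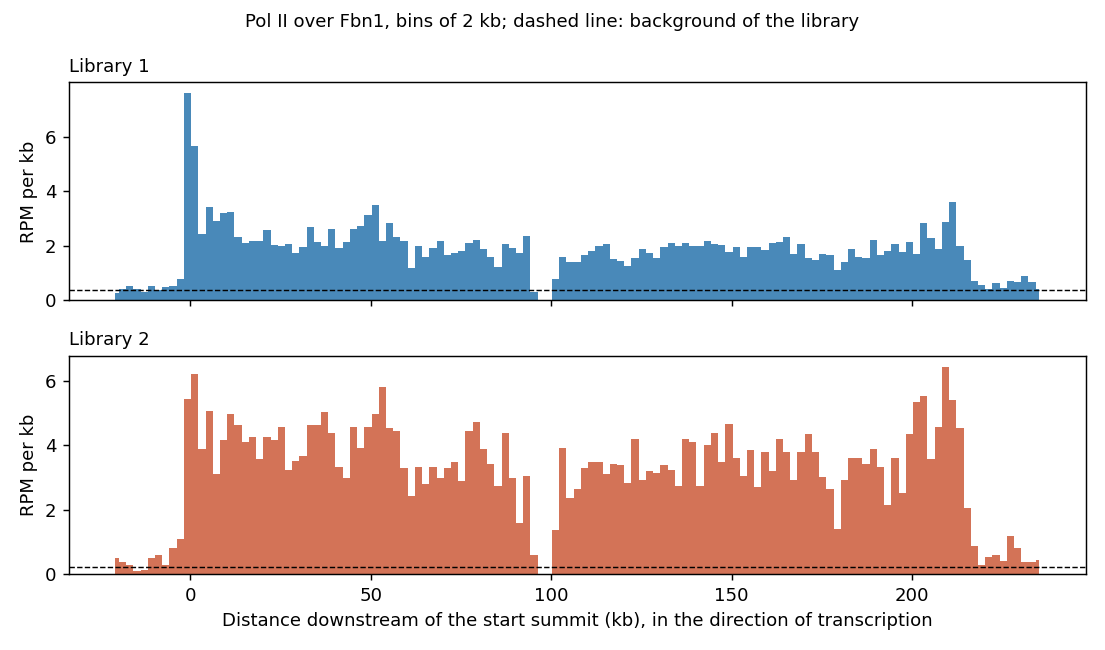
Pol II level (RPM per kb, bins of 2 kb) against distance downstream of the start summit of Fbn1 (kb), library 1 above and library 2 below on their own scales, with a dashed line at each library's background. In both libraries the signal extends over the 218 kb stretch apart from 1 run of 6.46 kb without placed reads, and the peak at the start stands out more in library 1.

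Lox was covered more densely over a much shorter stretch. Its enriched stretch ran over 18.5 kb, from 52638001 to 52656500, with 1973 reads in library 1 and 4489 in library 2. The calls of library 1 set this width, and with the calls of library 2 alone the stretch within the interval of the rule was 44.5 kb wide. The level was 6.08 RPM per kb in library 1 and 22.2 RPM per kb in library 2, 14.1 ± 11.4 on average (SD, n = 2). All 37 of its windows were called in each library. The level was 15.6 times the background in library 1 and 93.9 times in library 2. Because the gene is short, this added up to 112 RPM in library 1 and 410 RPM in library 2 over the whole stretch, against 448 RPM and 790 RPM over Fbn1. Per kb Lox was therefore the denser gene in both libraries, and in total Fbn1 held more Pol II in both.

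The peak at the start of Fbn1 was narrow, and its summit was the highest window of the stretch in both libraries, by a wide margin in library 1 and a small one in library 2, where a body window reached 46 reads. The highest window of the upper 20% of the stretch was the same in both libraries, 125197501 to 125198000. It held 136 reads in library 1 (7.75 RPM) and 50 in library 2 (4.57 RPM). The windows on each side of it held 79 and 94 reads in library 1, and 30 and 42 in library 2. One window further upstream, at 125198501, the counts were 19 and 16, so the signal fell within 1 kb of the summit on the upstream side. In the 5 kb upstream zone, which began 1 kb above the start zone, 0.604 RPM per kb remained in library 1 and 0.695 in library 2, 1.55-fold and 2.94-fold over background.

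Fbn1 carried more Pol II at its start than in its body in both libraries. The start zone was the summit window with 2 windows on each side, 2.5 kb in all, and the body ran over 192.5 kb from 1 kb below the start zone to the last 10% of the stretch. With the summit taken from the other library, the start zone had 8.66 RPM per kb in library 1 against 1.94 in the body, a ratio of 4.47 (95% exact interval 4.02 to 4.95, adjusted p = 9.40e-118 by an exact two-sided binomial test). In library 2 the values were 6.73 and 3.49 RPM per kb, a ratio of 1.93 (1.65 to 2.23, adjusted p = 3.21e-15 by the same exact test). The ratio was 3.20 ± 1.80 over the libraries (SD, n = 2), and the intervals of the libraries do not overlap, while both lie above 1. With windows without a read left out of the body, which was not planned, the ratios were 4.33 and 1.87. Each exact test here compares counts of single libraries, covers counting error only and was adjusted by the method of Benjamini and Hochberg within its family (4 tests of start against body).

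The start of Lox did not stand above its body in the same way in both libraries. The highest window of the start region was 52654501 to 52655000 in library 1, with 170 reads (9.69 RPM) there and 112 reads (10.2 RPM) in library 2. In library 2 the highest window of the same region lay 1.5 kb further downstream, at 52653001, with 160 reads against 77 in library 1. Between these windows, the one from 52654001 was a dip in library 2, with 46 reads after 143 in the window downstream of it, but not in library 1, where it held 83 reads after 78. With the summit taken from the other library, start over body was 1.40 in library 1 (95% exact interval 1.24 to 1.58, adjusted p = 1.30e-07) and 0.704 in library 2 (0.636 to 0.778, adjusted p = 7.52e-13, both by the exact binomial test). The zones therefore differed: 52652001 to 52654500 in library 1, which leaves out its own summit window, and 52653501 to 52656000 in library 2. The levels behind these ratios were 7.80 RPM per kb at the start and 5.56 in the body in library 1, and 16.3 and 23.1 RPM per kb in library 2. In the zone around its own summit, which was also that of the mean level, library 1 had 9.14 RPM per kb against 5.59 in the body. For library 2 the ratio in the zone around its own summit was not computed. The windows of that zone, from 52652001 to 52654001, held 154, 123, 160, 143 and 46 reads in library 2, against a body median of 117. The value of 0.704 thus holds for the zone around the summit of library 1 only. The ratio in library 1 also depended on where its zone lay. With 5′ ends shifted by 90 bp the summit of library 2 moved to 52652001, while that of library 1 stayed at 52654501. Around the moved summit the ratio in library 1 was 1.09 (exact adjusted p = 0.226). The mean over the libraries was 1.05 ± 0.49 (SD, n = 2), which spans 1, but it averages ratios from different zones.

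**Figure D2:**
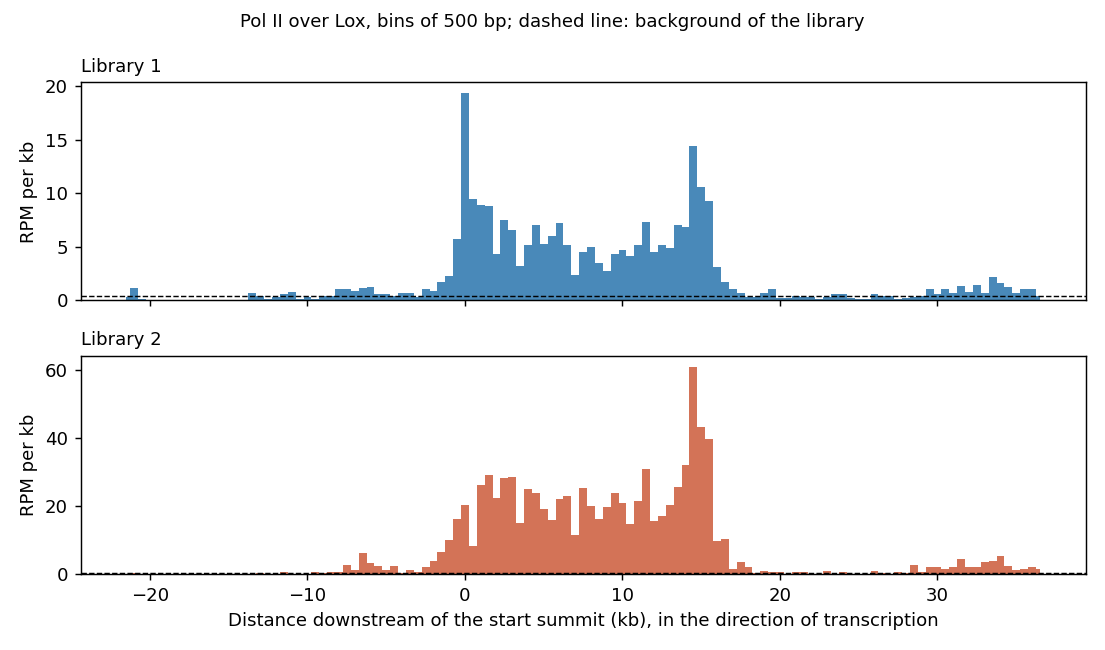
Pol II level (RPM per kb, bins of 500 bp) against distance downstream of the start summit of Lox (kb), library 1 above and library 2 below on their own scales, with a dashed line at each library's background. Library 1 shows a peak at each end of the stretch, whereas in library 2 the window at the start (112 reads) is low beside the windows near the lower end (up to 334 reads).

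With these start zones, the long gene was weighted toward its start more than the short one. Start over body was 3.19 times higher for Fbn1 than for Lox in library 1 (95% exact interval 2.71 to 3.75, adjusted p = 1.71e-44) and 2.73 times higher in library 2 (2.28 to 3.27, adjusted p = 3.03e-25), by an exact test of the ratio of ratios that allows for the lengths of the zones. For Lox in each library the contrast used a zone without the summit window of that library, so the size of both contrasts depends on that choice. At the start itself, library 1 had 8.66 RPM per kb for Fbn1 and 9.14 for Lox around the summit of the mean level, while in the body Lox had 5.59 against 1.94 RPM per kb. In library 2 the starts had 6.73 and 16.3 RPM per kb and the bodies 3.49 and 23.1 RPM per kb. With a start zone of 9 windows in place of 5, the contrast in library 1 was 2.09 (exact adjusted p = 6.55e-25). In library 2 it was then 2.18 (exact adjusted p = 4.74e-23).

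Past the first few kilobases, Pol II was spread over the Fbn1 stretch, with an uneven fall up to the ninth of 10 parts and a higher last part. In 10 equal parts of 21.8 kb from the start onward, library 1 had 3.39 RPM per kb in the first part, which includes the start peak. The part with 1.22 RPM per kb, the fifth from the start, holds the run without reads, so its level is not comparable with the others. Apart from it, the parts after the first ranged from 1.67 to 2.44 RPM per kb in library 1. In library 2 the first part had 4.49 RPM per kb and the last 4.38, and the parts between them, again apart from the fifth at 2.03, ranged from 3.04 to 4.12. From the second part to the ninth, the level went from 2.18 to 1.67 RPM per kb in library 1 and from 4.12 to 3.04 in library 2. The last part of the stretch was denser than each of the 6 parts before it in both libraries, a comparison of values without a test. Whether all of the last part lies within the gene was not determined. Windows of the body held 0 to 51 reads in library 1, with a median of 17, and 0 to 46 in library 2, with a median of 19. Their coefficient of variation, windows without a read left out, was 37.3% in library 1 and 36.2% in library 2, above the 23.9% and 22.5% that counting error alone would give.

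Outside the start zone, the windows of Fbn1 with the highest mean level lay close behind the start and close to the lower end of the stretch. The highest, from 125193001, was 4.5 kb downstream of the summit and held 50 reads in library 1 and 46 in library 2 (2.85 and 4.20 RPM). The next 2 were neighbours 211 kb and 210.5 kb downstream, from 124986501 with 37 and 40 reads and from 124987001 with 44 and 35 reads. Counted from the summit, they lie beyond the length of about 200 kb in the selection rule. Whether they are within the gene was not determined. None of the 3 differed between the libraries (exact adjusted p of 0.958, 1 and 0.781 over all windows tested). The gene end was not located in mm8, so the end zone is that of the stretch, its lowest 21.5 kb. It had 2.25 RPM per kb in library 1 and 4.37 in library 2. That was 1.16 times the body in library 1 (95% exact interval 1.08 to 1.25, adjusted p = 0.000125) and 1.25 times in library 2 (1.17 to 1.34, adjusted p = 1.87e-10, exact binomial test). The body holds the run without reads, which lowers its level, and the end ratios without that run were not computed. The call ended with a wider zone: over an end zone of the lowest 20% of the stretch, chosen after the data were seen, the ratios were 0.991 and 1.05 with adjusted p of 0.773 and 0.123 by the same exact test.

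Toward the lower end of the Lox stretch, Pol II rose to a second peak. The highest windows outside the start zone were 3 neighbours, 14.5 to 15.5 kb downstream of the summit. That is slightly beyond the length of about 14 kb in the selection rule, and the gene end was not located. The window from 52640001 held 126 reads in library 1 (7.18 RPM) and 334 in library 2 (30.5 RPM), the one from 52639501 held 93 and 237, and the one from 52639001 held 81 and 218. In library 2 all 3 exceeded every window of the start zone, whose highest count was 143, while in library 1 none reached the 170 reads of the start summit. The peak ended sharply, since the window from 52638501 held 27 and 54 reads and the 5 kb beyond the stretch had 0.536 RPM per kb in library 1 and 1.10 in library 2. Because the peak fell across the border between body and end zone, the end zone of 2 kb gave ratios of only 1.11 in library 1 (95% exact interval 0.951 to 1.28, adjusted p = 0.177) and 1.12 in library 2 (1.02 to 1.23, adjusted p = 0.0192). An end zone of the lowest 20%, again chosen after the data were seen, gave 1.52 in library 1 (exact adjusted p = 2.20e-12).

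**Figure D3:**
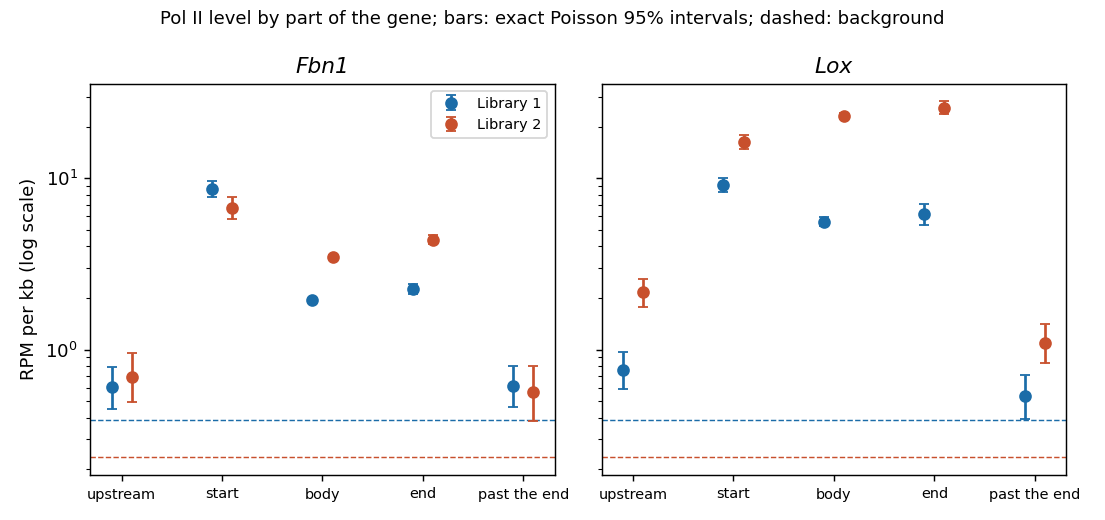
Pol II level (RPM per kb, log axis) in 5 zones of Fbn1 and Lox, with 1 point per library, exact Poisson 95% intervals as bars and each library's background as a dashed line. In Fbn1 the start is the highest zone in both libraries. In Lox the start zone is placed around 52654501, the summit of library 1. There the start is the highest zone in library 1 (9.14 RPM per kb) and lies under the body in library 2 (16.3 against 23.1).

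The libraries differed in the body of Lox and at the start of Fbn1. Ratios of library 2 to library 1 are given after scaling each library by its total in windows that both libraries called. At the start of Fbn1 the ratio was 0.473 (380 reads against 184, 95% exact interval 0.395 to 0.566, adjusted p = 1.64e-17 over 6 zones by the exact binomial test), and it stayed under 1 when scaled to all reads (0.777) or by a trimmed mean (0.382). In the body of Fbn1 it was 1.10 (1.06 to 1.13, adjusted p = 8.16e-08) and in the end zone 1.18 (1.08 to 1.30, adjusted p = 0.000318, exact), but scaled to all reads these became 1.80 and 1.94, and by the trimmed mean 0.885 and 0.955, so neither their size nor their direction is fixed. The body of Lox had a ratio of 2.52 (1226 reads against 3159, 2.36 to 2.69, adjusted p = 2.58e-183) and its end one of 2.56 (2.18 to 3.01, adjusted p = 7.93e-35, exact), and both were over 2 under each of the 3 scalings. The start of Lox had 1.08 (0.945 to 1.24, adjusted p = 0.243, exact), with 1.78 when scaled to all reads and 0.875 by the trimmed mean.

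In both genes the start was lower relative to the body in library 2 than in library 1. The ratio of library 2 to library 1 at the start was 0.431 times that in the body for Fbn1 (95% exact interval 0.359 to 0.517, adjusted p = 2.36e-21) and 0.431 times for Lox (0.370 to 0.502, adjusted p = 3.56e-27, Fisher's exact test). This contrast does not depend on how the libraries are scaled. Whether the 2 genes differ in it was not tested. For Lox it depends on where the start is placed: with starts found in both libraries left out, the highest window of the mean moved to 52652001 and the value was 0.960 (exact adjusted p = 0.655), while in the original zones it was 0.380. The stretches held 223 shared starts in Fbn1 and 360 in Lox, against 199 and 314 after displacing library 2 by 20 to 50 bp.

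**Figure D4:**
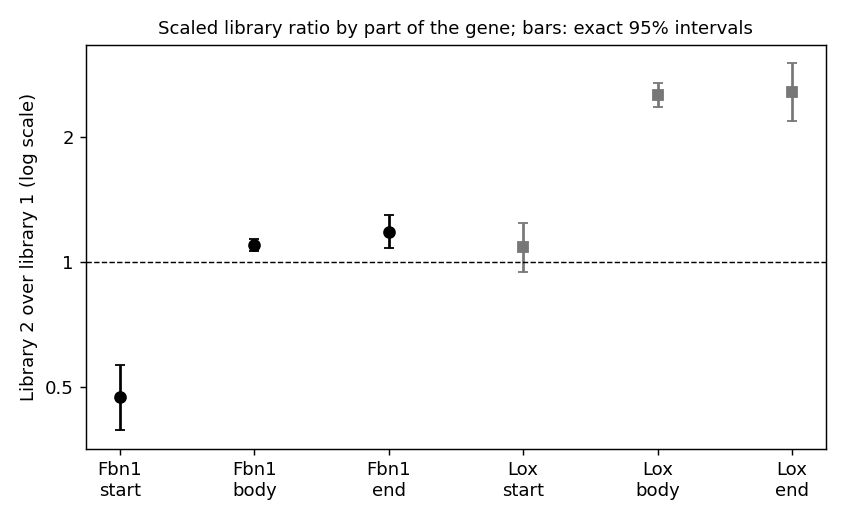
Ratio of library 2 to library 1 (log axis, scaled to reads in windows called in both libraries) at the start, body and end of Fbn1 (circles) and Lox (squares), with exact 95% intervals as bars and a dashed line at 1. In each gene the start lies lower than the body and end, from 0.473 to 1.10 and 1.18 in Fbn1 and from 1.08 to 2.52 and 2.56 in Lox.

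Most windows of Lox were higher in library 2, while the number of Fbn1 windows that differed depended on the scaling. Of the 37 windows of Lox, 32 were higher in library 2 and 2 higher in library 1 in the exact binomial test over all 410963 windows of the genome called in either library, of which 1.51% were higher in library 2 and 1.77% higher in library 1. Both windows higher in library 1 lay in the start zone, from 52654001 (83 reads against 46, ratio 0.541) and from 52654501 (170 against 112, ratio 0.644). The largest ratio toward library 2 was in the body at 52645501, with 24 reads against 108, a ratio of 4.40 (95% exact interval 2.80 to 7.16, adjusted p = 4.68e-10, exact). In Fbn1 the same test passed 4 of 418 windows as higher in library 1 and 1 as higher in library 2, shares of 0.957% and 0.239%, under those of the genome. The share that passes depends on reads per window, with body medians of 17 and 19 in Fbn1 against 45 and 117 in Lox. Depth was not matched between the genes or with the genome, so these shares are not like for like. Of the 4 windows of Fbn1 higher in library 1, 3 were the summit and its neighbours. The other, from 125188001, held 51 reads against 24 and was named after its values were seen. The summit had a ratio of 0.359 (95% exact interval 0.254 to 0.5001, adjusted p = 7.11e-08). The 1 window toward library 2, from 124995501, had 17 reads against 43 (ratio 2.47, exact adjusted p = 0.0413). Scaled to all reads, which moves all log2 ratios toward library 2 by 0.72, the genome had 2010 windows higher in library 1 and 76155 in library 2, and by the trimmed mean 15733 and 2492, against 7289 and 6208 here. In Lox, 35 and 25 windows were higher in library 2 under these scalings. In Fbn1, scaling to all reads gave 98 of 418 windows with more signal in library 2 and 1 with more in library 1, and 9 were higher in library 1 and 0 in library 2 by the trimmed mean (5 higher in library 2 at an unadjusted p of 0.05, exact binomial test).

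A lower library ratio at a peak than beside it was found at other sites of the genome too. Over 12016 local summits (windows called in both libraries, of at least 2 RPM and with none higher within 2 kb), the library ratio of the 2.5 kb around the summit was compared with that of the fuller 5 kb flank by Fisher's exact test, an analysis added after the data were seen. It was lower at the summit at 12.7% of them and higher at 8.52%, with a median ratio of ratios of 0.96 and quartiles of 0.74 and 1.27. The start summit of Fbn1 had 0.536 (95% exact interval 0.413 to 0.695, adjusted p = 4.33e-05, Fisher's exact test), lower than all but 7.05% of summits. That of Lox had 0.465 (0.390 to 0.554, adjusted p = 2.35e-15, Fisher's exact test), lower than all but 3.25%. Neither gene's other summits were lower than their flanks by this test: 21 more summits in Fbn1 included 2 that were higher, from 125143501 and 125193001 (both chosen after their values were seen, with 1.59 and 1.58; the flank of the latter, with 484 and 268 reads, contains the whole start zone with its 380 and 184 reads, so its value is not independent of that of the start), and 3 more in Lox, its end peak among them at 0.924, passed in neither direction.

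**Figure D5:**
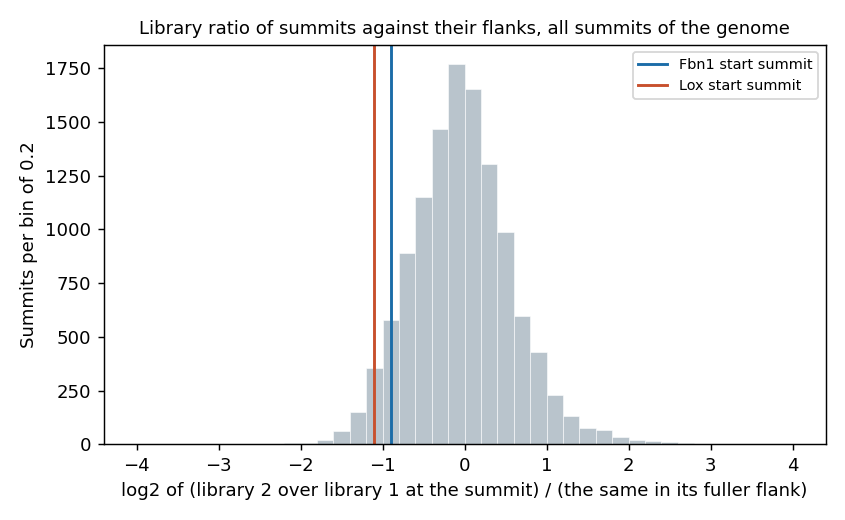
Number of summits of the genome (bins of 0.2) against the log2 of the library ratio at the summit over that in its fuller flank, with vertical lines at the start summits of Fbn1 (ratio 0.536) and Lox (0.465). Both lines lie on the left side of the distribution, where 7.05% and 3.25% of 12016 summits are lower.

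Against that distribution the height of the start peaks over the nearest 5 kb was not large. The start zone of Fbn1 stood 3.05-fold over its flank in library 1 and 1.64-fold in library 2, higher than 61.5% and 34.8% of the summits, whose medians were 2.47 and 2.19. For Lox the values were 1.65 and 0.766, higher than 31.1% and 5.10%. In library 2 the start zone of Lox around 52654501, the summit of library 1, thus held fewer reads per kb than the flank inside the gene.

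Among stretches of the genome, Fbn1 ranked high by width and Lox by level and library ratio. Only 14 of the 15079 stretches were wider than that of Fbn1, though a stretch can join neighbouring genes. This rank rests on the joining over 10 kb, chosen after the data were seen because the planned 5 kb broke Fbn1; with 5 kb, 46 of 20463 stretches were wider than the 115 kb left of it. Of the 159 stretches of at least 100 kb, 84.9% had a lower mean level than Fbn1 and 40.9% a lower ratio of library 2 to library 1, which was 1.07 over its whole stretch. The 3 stretches nearest to it in width were on chromosome 13 from 15252501 to 15471000, chromosome 14 from 24290501 to 24507500 and chromosome 11 from 8324501 to 8539000. Their levels were 1.27 ± 0.38, 1.91 ± 0.64 and 1.96 ± 0.90 RPM per kb (SD, n = 2), under the 2.84 of Fbn1, and their library ratios were 0.935, 0.984 and 1.19. The stretches were ranked after Fbn1 had been selected for its reads, so the ranks are a description.

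Lox was near the top of both measures. Of 4214 stretches of at least 10 kb, 99.8% had a lower mean level than Lox, and 15 had a higher ratio of library 2 to library 1 than its 2.22 (95% exact interval 2.11 to 2.34). The median ratio of these stretches was 1.005 and their median level 1.68 RPM per kb. The 3 stretches nearest in width, all of 18.5 kb (the width that library 1 sets) and with ties in width settled by the higher level, were on chromosome 4 from 131528501 to 131547000, chromosome 4 from 149078501 to 149097000 and chromosome 1 from 51233001 to 51251500. They had 4.90 ± 2.03, 4.85 ± 2.22 and 4.29 ± 1.74 RPM per kb (SD, n = 2) and library ratios of 1.11, 1.19 and 1.10. Repeated starts made up 13.3% of the reads of Lox in library 1 and 13.9% in library 2, against 10.1% and 4.54% over all nuclear reads, and distinct starts filled 5.33% and 12.1% of its positions and strands. In Fbn1 they made up 10.5% and 3.91%. Collapsing repeated starts thus lowered Lox more than the average region in library 2, the library in which it was higher.

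Around Fbn1, windows called in library 2 were about as frequent as over the genome, where 9.02% of all tested windows were called in that library. Around Lox they were more frequent. Beyond the lower end of the Fbn1 stretch, the 23 windows down to 124970001 held none called in library 1 and 1 called in library 2, and above its start 7 of 61 windows were called in library 2 and none in library 1, by the Poisson test with adjusted p of at most 0.01. Below the Lox stretch, 19 of 40 windows were called in library 2 and 4 in library 1 (3.41% of all tested windows), with the most reads of library 2 in the window from 52620501 (14 reads in library 1 and 30 in library 2). Above the start of Lox, 10 of 35 windows were called in library 2 and none in library 1, with the most in the window from 52661001 (10 and 34 reads). The windows there from 52668501 to 52673501 held no read in either library, so they were not tested. In the GRCm38 gene table the nearest protein-coding neighbours are Dut and Cep152 for Fbn1, and Srfbp1 and Zfp474 for Lox. With windows that held no read counted in, the mean level of library 2 was 1.42 RPM per kb below Lox and 0.924 above it, over its background of 0.236, against 0.596 and 0.441 beside Fbn1. The windows without a read above Lox lower its level there. The called windows beside the stretches were not assigned to a gene, since no annotation of mm8 was used here.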

How the data were processed

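Each of the 2 samples has 1 deposited file of read alignments, which lists per chromosome a signed offset for every read (its left-most base, with the strand as the sign), reads placed at 1 site and at 2 sites apart. Such offsets are other values than counts or signal, and the authors deposited no peaks. Per the file headers, the authors used Bowtie on mm8 with a seed of 36 bases (-l), at most 2 seed mismatches (-n), a quality limit of 70 (-e), at most 2 sites (-k and -m) and the best-first order. The submitters' processing notes name this tool and build, but the Bowtie version is not given. Reads fitting more than 2 sites are lost by these options.

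Nuclear reads with 1 site were collapsed to 1 per start and strand, and 5′ ends were shifted 60 bp downstream. Windows of 500 bp with a read in either library were called against the library's background (the mean over uncalled windows, updated in 3 rounds) at an adjusted p of 0.01, from one-sided exact Poisson probabilities. Windows called in both libraries were joined over at most 20 windows. The design had set 10, which broke Fbn1 at a run without reads; 20 was its listed alternative and was made the main setting after the data were seen. Zone tests used a threshold of 0.05. Shared starts made up 2.40% of the starts of library 2, an excess of 0.406% over displaced starts, and the libraries were treated as separate samples. The members and lists were chosen with earlier results of these data known. The windows named are the start summit, the 3 highest outside the start zone and the largest library ratio each way; the stretches named are the 3 nearest in width. Other elastic fibre genes had been listed, but without an annotation of mm8 they were not evaluated. Window calls, the test between libraries and the summit test were tested on simulated data. The simulated counts followed the Poisson and binomial models of the tests, so the extra spread of the real windows was not covered. Statistics were computed with SciPy 1.17.1 and NumPy 2.4.6 under Python 3.11.15, and figures drawn with matplotlib 3.10.9.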

Additional observations from a re-analysis of the deposited data

Results flagged for a closer look

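Reads placed at 2 sites entered no comparison and were found in both stretches above the 3 counts that a count of 0 allows. The Fbn1 stretch held 90 such alignments in library 1 and 90 in library 2, and the Lox stretch held 9 and 34, with repeated starts collapsed. They are few beside the 7868 and 8641 reads of Fbn1 and the 1973 and 4489 reads of Lox placed at 1 site.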

How the results depend on the processing

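Of 220 values recomputed under the alternatives, 177 kept their direction and their side of the threshold, or moved by less than the spread given. Counts of windows were allowed a wider change, such as 10131 for 7289 higher in library 1 with all reads kept. Some values could not change, such as start against body under another scaling, Lox under narrower joining, and levels with 1 library left out. The 177 are thus no measure of robustness. No paired analysis was possible because the samples form 1 group. Joining over at most 10 or at most 4 windows gave a 115 kb stretch of Fbn1 without the start, in which the 2.5 kb zone around the highest upper window stood at 0.822 of the body in both libraries; the contrast with Lox was then 0.586 and 1.17, the library ratio in that zone 1.62 and against the body 1.43. Leaving out 1 library gave levels of 2.06 to 3.62 RPM per kb for Fbn1 and 6.08 to 22.2 for Lox, and widths of 218 to 249.5 kb and 18.5 to 44.5 kb. A shift of 90 bp moved the summit of library 2, and start over body of Lox in library 1, measured around that summit, was 1.09. Its end over body in library 1 was 1.81 at a threshold of 0.0001, 1.25 against the central part of the stretch and 1.52 with the wider end zone, which for Fbn1 gave 0.991 and 1.05. With background removed, start over body of Fbn1 was 5.33 in library 1, and its library ratios were 1.28 in the body and 1.35 at the end.

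Scaling to all reads gave a ratio of 1.78 at the start of Lox, 2010 and 76155 windows higher in library 1 and library 2, 1 and 98 of them in Fbn1, and 0 higher in library 1 in Lox (0 also at an unadjusted p of 0.05 by the exact binomial test). The trimmed mean, which moved all log2 ratios by -0.31, gave 0.885 in the body and 0.955 at the end of Fbn1, 0.875 at the start of Lox, 15733 and 2492 windows, and 9 and 0 in Fbn1 (5 higher in library 2 at an unadjusted p of 0.05 by the exact binomial test). Without collapsing repeated starts, 10296 windows exceeded library 1 in library 2, 3 of them in Fbn1; with at least 20 reads, 2 were in Fbn1. Without shared starts and with the summit chosen again, the start of Lox had 2.80 and 0.960 against its body. The causes of these changes were not tested, except where the stretch or summit moved. With 1 library a side, intervals cover counting error only, and at about 17 to 19 reads per window in Fbn1 single windows resolve large differences only.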
